A study of Mus musculus with 18 samples.

Results

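The cells described here came from the 5 messenger RNA libraries of expanded mouse skin, namely day 1 in rounds 1 and 2, day 2 in rounds 1 and 2, and day 4 in round 1. They were chosen by arm alone, and the comparison is between days under the expander. After filtering, the 5 libraries held 16694 of the 44342 cells of the series, which has 10 messenger RNA libraries among its 18 samples. The other 5 libraries came from control mice, and they enter here only as a background measured in the same way.

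Every mouse in the study, control mice included, was operated on: the skin was cut near the tail and a channel was made beneath it as far as the neck. The expanded mice also received a hydrogel expander, a device placed under the neck skin and held by stitches, whereas the controls received none. Skin was collected 1, 2 or 4 days later, and DAPI-negative (live) cells were sorted and captured by droplet-based 3′ sequencing. The labels give no strain, age or sex. The mice of 1 arm and round were pooled in 1 tube, and antibodies carrying a DNA barcode (hashing) marked which mouse a cell came from. Hashing covered 3 mice on day 1, all of round 2, 7 mice on day 2, 3 of round 1 and 4 of round 2, and 4 mice on day 4, all of round 1. The day 1 round 1 pool was not hashed.

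Tissue expansion stretches living skin, which adds area partly by division of basal keratinocytes, the stem and progenitor layer of the epidermis. An implant placed under the skin is also a wound and a foreign body. Neutrophils and then monocytes enter such tissue from the blood and the monocytes become macrophages, while fibroblasts send out chemokines and remodel collagen. Interferons induce a shared set of antiviral genes in nearly every cell type, so that set can be read in each class.

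The 5 expanded libraries held 21719790 to 52909126 unique molecular identifiers (UMIs), each of which counts 1 captured RNA molecule, and 1835 to 5537 cells were kept per library. Barcodes removed for a mitochondrial share over 10% made up 8.63% to 24.4% of a library. Cells were grouped into 38 clusters across the series, and 3.68% to 7.25% of the cells of an expanded library stayed unnamed. Hashing placed 99.06% of the 6070 hashed immune cells with a mouse but 32.17% of the 7085 hashed non-immune cells. Day 1 mouse 3 gave 1679 of the 1924 assigned immune cells of day 1. Day is confounded with library except for the 2 rounds of days 1 and 2. The p-values below therefore measure the spread between mice that share a capture reaction, or between a few reactions.

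Macrophages and monocytes took a larger share of the immune cells on day 2 than on day 1, and lymphocytes a smaller one. Among immune cells, macrophages and monocytes made up 12.0%, 4.46% and 23.1% in the 3 mice of day 1. In the 7 mice of day 2 the share ranged from 36.1% to 64.0% with a median of 45.0%, and in the 4 mice of day 4 it was 52.1%, 45.4%, 28.6% and 33.1%. Every mouse of day 2 lay above every mouse of day 1, and days 2 and 4 overlapped. The mean rose from 13.2% ± 9.38 (SD, n = 3) to 47.0% ± 11.0 (SD, n = 7), a difference of 33.8 percentage points (two-sided exact permutation test over mice, p = 0.00833, which is the smallest that 120 arrangements allow, and 0.0417 after Benjamini-Hochberg adjustment over 10 comparisons). On day 4 the mean was 39.8% ± 10.8 (SD, n = 4), which did not differ from day 2 (adjusted p = 0.520, exact permutation test).

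Lymphocytes, here T cells, innate lymphoid and natural killer cells together, made up 50.4%, 73.2% and 51.9% of immune cells in the mice of day 1. On day 2 they made up 4.16% to 43.2% with a median of 14.3%, and on day 4 11.5%, 21.3%, 43.5% and 28.4%. No mouse of day 2 reached the lowest mouse of day 1. The mean share fell by 37.9 percentage points from day 1 to day 2 (exact permutation test, p = 0.00833, adjusted p = 0.0417), from 58.5% ± 12.8 (SD, n = 3) to 20.6% ± 14.1 (SD, n = 7). The next step differed by 5.56 points (adjusted p = 0.652, exact permutation test). Since all shares sum to 100%, a rise of 1 class lowers the others, and these shares do not show which class changed in number. Without any 1 of 10 of the 14 mice, the adjusted p of both classes passed 0.05, up to 0.139, because fewer arrangements remained. In control skin the lymphocyte share averaged 38.4% on day 1 (26.2% to 53.1% over 3 mice), 28.8% on day 2 (19.0% to 49.1% over 7) and 17.7% on day 4 (12.1% to 24.4% over 4).

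Neutrophils, the short-lived granulocytes that enter wounds early, made up 1.5%, 8.93% and 11.2% of immune cells on day 1. On day 2 they ranged from 8.00% to 31.4% with a median of 25.2%, and on day 4 they were 30.6%, 15.8%, 7.48% and 26.9%. The days overlapped, and the difference of 14.2 points from day 1 to day 2 did not pass the test (exact permutation p = 0.075, adjusted p = 0.188). Dendritic and Langerhans cells, which present antigen, made up 30.8%, 9.82% and 11.7% on day 1, 4.71% to 18.7% on day 2, and 5.76%, 14.7%, 19.7% and 10.4% on day 4. The difference of -7.70 points from day 1 to day 2 (adjusted p = 0.30, exact permutation test) lay within the spread. Mast cells differed by -2.38 points over the same step (adjusted p = 0.167, exact permutation test). In control mice, measured the same way, neutrophils made up 0% to 1.84% on day 1, 0.316% to 4.46% on day 2 and 0.257% to 2.02% on day 4, and macrophages and monocytes 13.3% to 34.4%, 23.9% to 47.9% and 35.2% to 48.7%.

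**Figure D1:**
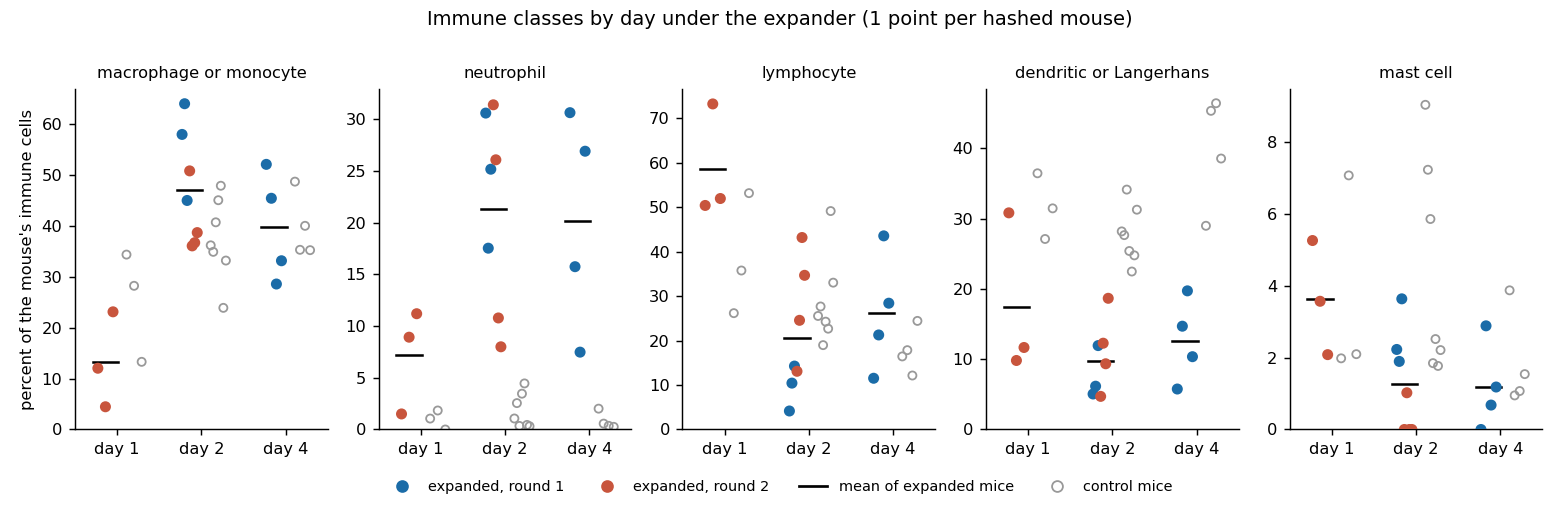
Share of each immune class among the immune cells of each expanded mouse (percent, y axis) by day after surgery (x axis), with 1 point per mouse and bars at the mean. Macrophages and monocytes of day 2 (36.1% to 64.0%) lie above all 3 mice of day 1, and lymphocytes of day 2 (4.16% to 43.2%) lie below them.

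The pooled libraries, which include the unhashed pool, gave shares on the same side. Macrophages and monocytes made up 22.6% and 21.2% of the immune cells in the libraries of day 1, 55.8% and 39.8% on day 2 and 42.6% on day 4. Neutrophils made up 3.37% and 10.7%, then 24.4% and 23.1%, then 22.6%. Immune cells made up 20.6% and 34.9% of all cells on day 1, 62.4% and 43.7% on day 2 and 41.2% on day 4. Within the macrophage class, 1 cluster had both monocyte genes (Chil3, Ms4a4c, Ly6c2) and macrophage genes (Msr1, Fcgr1, Pf4) among its leading genes. It held 52.2% and 86.8% of the cells on day 1, 99.6% and 97.5% on day 2 and 96.6% on day 4. The rest of the class was a cluster led by Ccl8, the complement genes C1qa to C1qc and Cd209f, genes of macrophages that reside in tissue. In a finer clustering (resolution 2) the clusters were named anew, so a class need not hold the same cells. The largest dendritic cluster, with Mgl2 and Cd209a among its leading genes, held 449 expanded cells at resolution 1. At resolution 2 the dendritic clusters with Mgl2 among their leading genes held 153 and 57. A cluster named macrophage or monocyte there and led by Pf4, Msr1 and Mrc1 held 1412 expanded cells. Another, led by Chil3, Plac8 and Ly6c2, held 744, and 1 led by Clec4n and H2-DMb1 held 430.

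Non-immune classes were compared per library without a test, since hashing missed most of these cells. Basal keratinocytes made up 31.0% and 37.3% of non-immune cells on day 1, 14.7% and 14.5% on day 2, and 24.2% on day 4. Vascular endothelial cells were at 11.1% and 13.3%, then 7.55% and 5.55%, then 14%. In both classes the libraries of day 1 and day 2 did not overlap. Cells with markers of the dermal papilla, the fibroblast cluster at the base of the hair follicle, went from 2.06% and 3.03% to 9.48% and 17.2% and then 18.4%. In the control libraries they made up 0.877% and 4.30% on day 1, 2.64% and 14.3% on day 2 and 6.72% on day 4. Fibroblasts stood at 46.7% and 27.0%, then 48.6% and 23.3%, then 19.8%, so that the 2 rounds of a day differed more than the days did.

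Gene levels were compared after the counts of all cells of 1 class in 1 mouse, or in 1 library, were summed. Levels are CPM, the counts scaled to an effective library size of 1e+06, and differences are log2 fold changes from edgeR's quasi-likelihood test, with p adjusted by Benjamini-Hochberg over all genes tested in the class. A sum rested on 22 to 134 fibroblasts, 20 to 105 basal keratinocytes or 25 to 872 lymphocytes per mouse and on 50 to 447 vascular cells per library. Sums by mouse left out the cells that hashing did not place, which were most fibroblasts and basal keratinocytes (36.4% and 27.6% placed). A summed level cannot tell fewer expressing cells from less RNA per cell. The steps from day 1 to day 2 and from day 2 to day 4 share the samples of day 2, so they are not independent.

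Fibroblasts, the collagen-making cells of the dermis, had the most calls of the 7 classes tested at the first step, each class in its own unit. Fibroblasts were tested by mouse, but vascular and myeloid cells by library. Simulated log2 changes of 2 were recovered for 90% of genes in fibroblasts and 8% in neutrophils. The counts therefore do not show in which class more genes changed. Between day 1 (3 mice) and day 2 (5 mice), 250 genes rose and 151 fell of 8037 tested, or 4.99% (3.11% up and 1.88% down). Chemokines, the cytokine Il11 and lipid-handling genes were among those that rose, and Cntfr, Tob1, the immediate early gene Nr4a1 and heat shock genes were among those that fell. Between days 2 and 4 (4 mice), 26 rose and 44 fell, or 0.871% (0.324% up and 0.547% down). The median log2 fold change over all genes lay between -0.04 and 0.02 in each comparison of the classes reported here. The calls of the first step numbered 45, 217 and 41 without day 1 mouse 1, 2 or 3. Without day 4 mouse 3 or mouse 2, or day 2 round 1 mouse 3, the calls of the second step numbered 18, 20 and 29.

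Il11, an interleukin linked to fibroblast activation, was at 3.60, 6.30 and 9.97 CPM in the mice of day 1. On day 2 it stood at 201, 182, 325, 30.6 and 88.9 CPM, above every mouse of day 1, and on day 4 at 132, 9.56, 25.3 and 50.9 CPM. It rose by 4.77 on the log2 scale at the first step (SE 0.95, edgeR adjusted p = 0.0145), the 1 call of 9 inflammatory cytokine and prostaglandin genes (median 1.17). Cxcl2, a chemokine that draws neutrophils, was at 56.8, 154 and 128 CPM on day 1 and at 590.3, 1070, 301, 352 and 814 on day 2. All 5 mice of day 2 lay above day 1, and Cxcl2 rose by 2.52 (SE 0.51, edgeR adjusted p = 0.0163), with 1452, 624, 424 and 696 CPM on day 4. In control fibroblasts Il11 stayed at 1.10 to 10.4 CPM and Cxcl2 at 29.9 to 191 CPM over all days. Of the 5 neutrophil-drawing chemokines tested, Cxcl2 and Cxcl1 (log2 1.21, edgeR adjusted p = 0.0479) rose, all 5 had higher estimates, and the list's median was 2.52. Among the 6 CC chemokines, which draw monocytes and other leukocytes, Ccl8 and Ccl6 rose, all 6 were higher, and the median was 1.74. Ccl8 went from 50.3, 50.4 and 77.3 CPM to 577, 369, 237, 257 and 218 CPM, without overlap (log2 2.47, SE 0.57, edgeR adjusted p = 0.0266). Ccl6 was at 0 in all 3 mice of day 1 and at 39.6, 37.4, 16, 0 and 2.58 CPM on day 2 (edgeR adjusted p = 0.0350). Ccl6 is a macrophage chemokine, and the summed level of 12 macrophage markers in the fibroblasts was 235 to 487 CPM on day 1 and 398 to 761 on day 2, with 0 of the 4 tested markers called. Their part in the Ccl6 result was not tested.

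Secreted and carrier proteins made up most of the other named rises. Slpi, a protease inhibitor of inflamed epithelium, was at 3.60, 0 and 0 CPM on day 1 and at 223, 81.8, 244, 1458 and 12.9 on day 2 (edgeR adjusted p = 0.0243), and no fold is given against so few counts. In the fibroblasts of the mouse at 1458 CPM, day 2 round 2 mouse 1, 9 monocyte genes summed to 1896 CPM. The sum was 278.5 to 665 CPM in the other mice of day 2 and 241.2 to 287.7 CPM on day 1. The part of such cells or their RNA in the Slpi result was not tested. Penk, the precursor of enkephalin peptides, rose by 3.25 (SE 0.71, edgeR adjusted p = 0.0221), from 20.1, 9.44 and 3.74 CPM to 187, 115, 52.6, 159 and 100.4 CPM. On day 4 Penk was back at 23.7, 53.1, 6.31 and 4.24 CPM. Cpxm1, a secreted carboxypeptidase-like protein, stood at 172, 81.9 and 101 CPM, then at 1077, 1448, 467, 941 and 232 CPM, with no overlap (log2 2.77, SE 0.62, edgeR adjusted p = 0.0237). Rarres2, which encodes the chemoattractant chemerin, had 605, 387 and 541 CPM on day 1 and 3104, 1835, 1192, 2390 and 1286 on day 2. Each mouse of day 2 exceeded day 1 (log2 1.93, SE 0.36, edgeR adjusted p = 0.0124), and day 4 held 1337 to 3656 CPM. Inhba, the subunit of activin A, rose by 1.99 (edgeR adjusted p = 0.0275), the 1 call among 13 genes of the TGF-beta and activin group, whose median was 0.12. Fabp5, a fatty acid carrier, and Plin2, a coat protein of lipid droplets, rose by 3.06 and 1.63 (edgeR adjusted p = 0.0371 and 0.0314), and 3 of 15 lipid genes were called, with a median of 0.39.

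Cntfr, the binding subunit of the receptor for ciliary neurotrophic factor, was, with Tob1, 1 of the 2 genes of the 29 read at this step in fibroblasts that kept the call in each of 12 fits leaving out 1 mouse. It was at 156, 135 and 108 CPM on day 1, at 32.2, 38.8, 19.3, 24.5 and 20.6 on day 2 and at 7.91, 42.5, 24.0 and 31.4 on day 4. Its level fell by 2.31 on the log2 scale from day 1 to day 2 (SE 0.31, edgeR adjusted p = 0.00311, at most 0.0297 with any 1 mouse left out). Tob1, an antiproliferative regulator, likewise went from 275, 205 and 244 CPM to 57.1, 111, 109, 88.6 and 95.3 CPM. It fell by 1.4 (SE 0.20, edgeR adjusted p = 0.00326, at most 0.0303 with any 1 mouse left out). Timp3, an inhibitor of matrix proteases, fell by 1.54 (SE 0.26, edgeR adjusted p = 0.0074), from 321, 186 and 507 CPM to 132, 122, 114, 79.5 and 135 CPM, and Timp3 was the only call among 11 proteases and inhibitors. Nr4a1, an immediate early nuclear receptor, went from 616, 409 and 647 CPM to 288, 256, 332, 251 and 225 CPM (edgeR adjusted p = 0.00775). Nr4a1 was the 1 called gene of 13 immediate early genes, 12 of which were lower, with a median of -0.54. Of 10 heat shock genes, Hspa1a, Hspa1b and Hsph1 fell (log2 -1.12, -1.08 and -0.86, edgeR adjusted p = 0.0334, 0.0230 and 0.0202).

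Collagens did not follow the chemokines. Of 11 fibrillar and associated collagen genes 0 were called in fibroblasts by edgeR at either step, with medians of -0.40 and 0.36, and of 8 contractile genes 0 were called at the first step (median 0.79, all 8 higher). Respiratory chain genes had 37 of 80 called up at the first step, with a median of 0.55, and ribosomal protein genes 15 of 78, with a median of 0.18. Genes called up in fibroblasts from day 1 to day 2 had a median transcript length of 747 bases and those called down 1847 bases, against 1310 over all tested genes. The part of transcript length in these calls was not tested. Of the 29 fibroblast genes read at the first step, Cntfr and Tob1 kept the call in all 12 fits that left out 1 mouse, while 25 lost it without day 1 mouse 1 and 26 without day 1 mouse 3 (highest adjusted p over those fits 0.215, edgeR). With libraries rather than mice as the unit, 3 genes were called at the first step and 6 at the second.

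From day 2 to day 4, the matrix genes Loxl2, Mfap2 and Ccn4 rose in fibroblasts. Loxl2, a lysyl oxidase that crosslinks collagen, was at 123, 107, 141, 110 and 72.1 CPM on day 2 and at 257, 391, 167 and 236 on day 4. All 4 mice of day 4 lay above day 2, and Loxl2 rose by 1.24 (SE 0.22, edgeR adjusted p = 0.0239), the 1 call among 9 crosslinking genes (median 0.26). Mfap2, a microfibril protein, and Ccn4, a matricellular protein, rose by 1.00 and 0.69 (edgeR adjusted p = 0.0453 for both). Ndufa4l2, a mitochondrial protein induced in hypoxia, went from 83.2 to 144 CPM on day 2 to 241, 286, 461 and 326 on day 4 (log2 1.54, SE 0.28, edgeR adjusted p = 0.0239). Zfp36, which speeds the decay of cytokine mRNA, rose by 1.42 (SE 0.26, edgeR adjusted p = 0.0239), after 892, 765 and 1078 CPM on day 1, 237 to 616 on day 2 and 836 to 1644 on day 4. Among the falls were the amino acid genes Slc7a1, a cationic amino acid transporter, and Aars, alanyl-tRNA synthetase, both at log2 -1.13 (SE 0.21, edgeR adjusted p = 0.0285 and 0.0239). Lgals3bp, a secreted glycoprotein induced by interferon, fell by 1.52 (edgeR adjusted p = 0.0285), from 52.5, 55.4, 99.3, 64.2 and 90.1 CPM to 23.7, 29.7, 16.4 and 30.5 CPM. Apart from Rpl35 and Rps29, the 15 genes read at this step each lost the call in at least 1 of the 12 fits leaving out a mouse, most often without day 4 mouse 3 or mouse 2 (edgeR adjusted p up to 0.159).

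**Figure D2:**
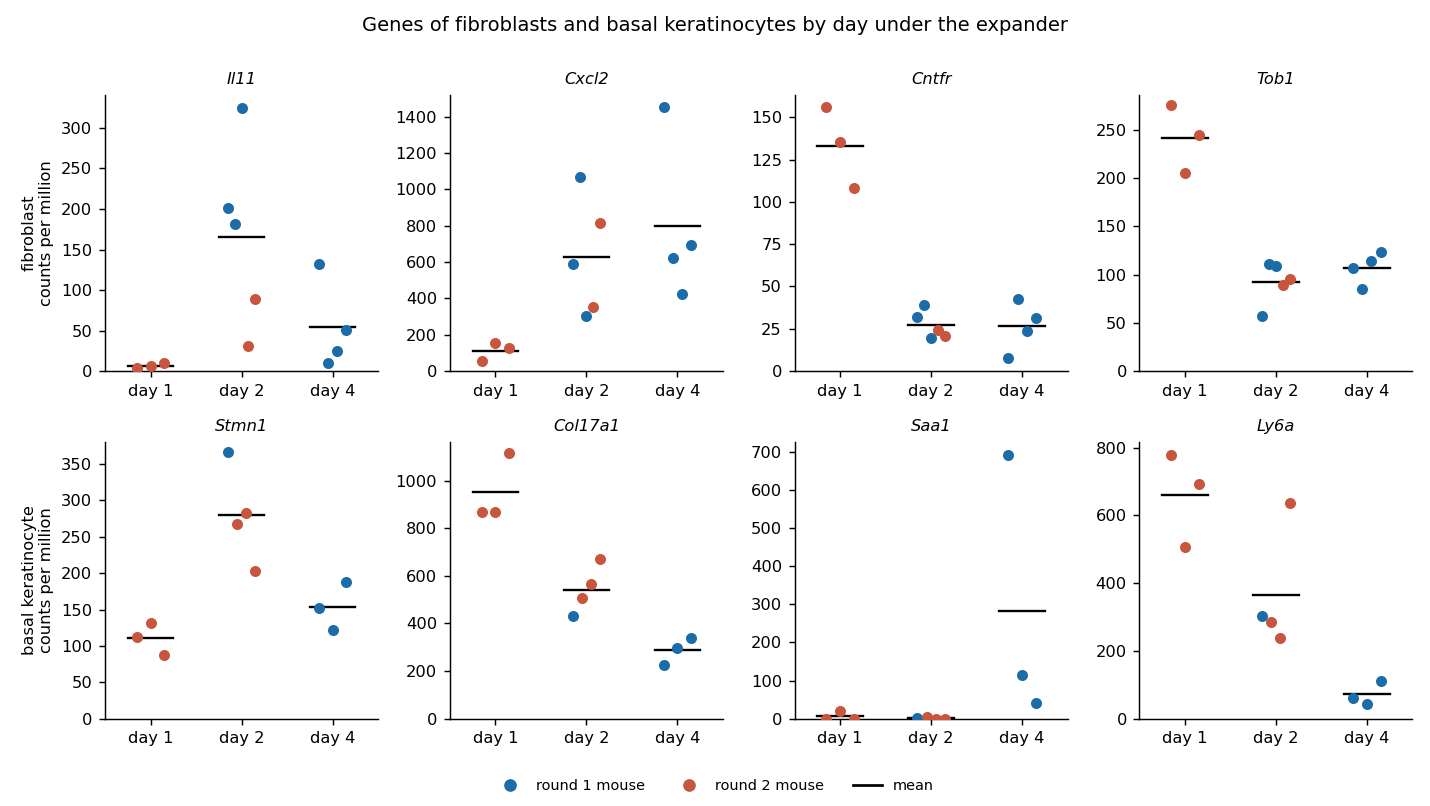
Levels (CPM, linear axis) of 4 genes in fibroblasts and 4 in basal keratinocytes by day. There is 1 circle per expanded mouse (blue round 1, red round 2), and bars lie at the mean. Il11 and Cxcl2 lie higher on day 2 than on day 1, Cntfr and Tob1 lie lower on days 2 and 4, and Saa1 lies above and Ly6a below the mice of day 2 on day 4.

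Basal keratinocytes had calls at both steps. From day 1 (3 mice) to day 2 (4 mice) 40 genes rose and 39 fell of 7984 tested, or 0.989% (0.501% up and 0.488% down). In the next step, to day 4 (3 mice), 63 rose and 59 fell, or 1.53% (0.789% up and 0.739% down). The receptors Fgfr2 and Fgfr3, Wnt4 and the adhesion genes Dsg1a and Col17a1 fell at the first step, and the acute phase genes Saa1 and Lcn2 and the lipid genes Scd1 and Cers4 rose at the second. The first step had 11, 33 and 12 calls without day 1 mouse 1, 2 or 3, without day 2 round 2 mouse 1 or mouse 4 it had 50 and 52, and without day 4 mouse 2 or mouse 3 the second step had 17 and 31. Per library, 25 and 0 genes were called. Most of the class was a cluster led by Krt24, Krt15, Col17a1 and Lhx2. The follicle markers Lhx2, Sox9 and Krt17 were among its leading genes. It held 65.6% of the expanded cells of the class on day 1, 53.6% on day 2 and 52.6% on day 4. In control skin it held 60.9%, 53.8% and 54.4%. The other cluster was led by Apoc1, Krt14 and Fgfbp1. The part of this make-up in the gene steps was not tested.

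Stmn1, a microtubule regulator of dividing cells, was at 113, 131 and 87.6 CPM on day 1 and at 366, 268, 283 and 203 on day 2, then at 152, 122 and 188 on day 4. The mice of day 2 lay above those of both other days, and Stmn1 rose by 1.34 at the first step (SE 0.22, edgeR adjusted p = 0.0147). Stmn1 was the 1 call among 21 cell cycle genes, of which 20 were higher, with a median of 0.76. Pttg1, the securin that holds sister chromatids together, rose by 1.76 (edgeR adjusted p = 0.0466), from 30.03, 9.23 and 18.6 CPM to 60.0, 30.4, 79.6 and 76.6 CPM. By mouse, from assigned cells alone, the 21 genes summed to 906, 935 and 673 CPM on day 1 and 1611, 1147, 1568 and 929 on day 2. On day 4 the sums were 1285, 836 and 1468 CPM, so the days overlapped. Over all cells of a library the sum was 598 and 527 CPM on day 1, 1278 and 971 on day 2 and 1084 on day 4. There days 1 and 2 were apart, and the round 2 library of day 1, at 527 CPM, lay below each of its mice. Control libraries held 651 and 784 CPM, then 1058 and 833.5, then 920 CPM, with days 1 and 2 also apart. Acsl4, which activates arachidonic acid, rose by 1.57 (edgeR adjusted p = 0.0234), from 32.4, 44.8 and 35 CPM to 108, 154, 104 and 86.5 CPM.

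The fibroblast growth factor receptors were among the genes that fell. Fgfr2 went from 69.7, 83.7 and 105 CPM on day 1 to 26.1, 43.0, 28.8 and 27.2 on day 2 and 38.2, 36.7 and 34.0 on day 4 (first step log2 -1.49, SE 0.22, edgeR adjusted p = 0.00835). Fgfr3, which restrains keratinocyte growth, had 66.1, 67.2 and 86.5 CPM, then 27.4, 25.3, 17.7 and 39.5 CPM, then 18.8, 18.8 and 19.3 CPM (log2 -1.42, SE 0.23, edgeR adjusted p = 0.0147). Neither receptor overlapped between days 1 and 2. Wnt4, a Wnt ligand made by basal cells, fell by 1.15 (SE 0.19, edgeR adjusted p = 0.0147), from 288, 198 and 288 CPM to 143, 106, 90.7 and 119 CPM. Dsg1a, a desmosomal cadherin, fell by 1.98 (SE 0.26, edgeR adjusted p = 0.00456), and Nfyb, a subunit of the CCAAT-binding factor NF-Y, by 1.25 (SE 0.17, edgeR adjusted p = 0.00456). Slc27a3, an acyl-CoA synthetase, went from 110.5, 105.5 and 115 CPM to 48.3, 35.4, 46.4 and 37.1 CPM and then 39.7, 39.5 and 38.2 CPM (log2 -1.37, SE 0.16, edgeR adjusted p = 0.00456). Fgfr2, Slc27a3, Nfyb and Dsg1a kept the call in all 10 fits that left out 1 mouse (adjusted p at most 0.0490). Fgfr3, Wnt4 and Stmn1 lost it without day 1 mouse 1 or mouse 3 (adjusted p up to 0.117), and Pttg1 and Acsl4 without those and other mice (up to 0.173, edgeR).

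Col17a1, the collagen of the hemidesmosome that ties basal cells to the basement membrane, fell at both steps. Its levels were 867, 869 and 1117 CPM on day 1, 429, 506, 564 and 670 on day 2 and 227, 298 and 338 on day 4, with no overlap between any days. Control mice held 558 to 729 CPM on day 1, 320 to 454 CPM on day 2 and 365 to 443 CPM on day 4. The log2 fold changes were -0.81 (SE 0.18, edgeR adjusted p = 0.0466) and -0.91 (SE 0.18, edgeR adjusted p = 0.0270). Of 11 hemidesmosome and basement membrane genes, 1 fell at the first step (median -0.35, 10 lower) and 2 at the second (median -0.68, 10 lower), Col17a1 being among them at both. Leaving out day 1 mouse 1 or another mouse in turn took the Col17a1 call away in 8 of 10 fits at the first step and 5 of 10 at the second (adjusted p up to 0.249, edgeR).

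At the second step the acute phase genes Saa1, Lcn2 and Orm1 rose in basal keratinocytes. Saa1, serum amyloid A, was at 0, 21.1 and 0 CPM on day 1, at 1.3, 5.06, 0 and 0 on day 2 and at 691, 114 and 40.3 on day 4 (edgeR adjusted p = 0.0220). Lcn2, which binds bacterial iron carriers, had 180, 311, 318 and 71.6 CPM on day 2 and 1911, 616 and 868 on day 4, all above day 2 (log2 2.36, SE 0.47, edgeR adjusted p = 0.0254). Orm1, an acute phase glycoprotein, rose by 2.51 (SE 0.50, edgeR adjusted p = 0.0261). The Lcn2 protein is also stored in neutrophil granules, and the summed level of 8 neutrophil markers in the same cells was 441, 9.40, 14.4 and 50.4 CPM on day 2 and 1881, 83.3 and 924 on day 4. The mouse with the highest markers, day 4 mouse 2, also had the highest Saa1 and Lcn2, and the part of the markers was not tested. Without that mouse the calls of Saa1, Lcn2, Orm1, Cers4, Scd1 and Ly6a were lost, with edgeR adjusted p up to 0.140.

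The lipid genes Scd1 and Cers4 rose beside them. Scd1, which desaturates fatty acids, went from 96.5, 30.4, 42 and 124 CPM on day 2 to 1074, 1021 and 182 on day 4 (log2 3.34, SE 0.56, edgeR adjusted p = 0.0123). Cers4, a ceramide synthase, went from 15.7, 27.8, 31.0 and 29.6 CPM to 423, 494 and 63.8 CPM (log2 3.69, SE 0.59, edgeR adjusted p = 0.0115). In both genes day 4 mouse 4 lay well below the other mice of its day but above day 2. Mgst2, a microsomal glutathione transferase, rose by 2.68 (SE 0.37, edgeR adjusted p = 0.00511) and kept the call in all 10 fits leaving out a mouse. Of 11 lipid genes 2 were called, Plin2 and Lpl, with a median of 0.56. Scd1 is also a marker of sebocytes, the lipid-making cells of the sebaceous gland. The 6 sebocyte markers summed to 141, 331 and 186 CPM on day 1, 386, 233, 231 and 287 on day 2 and 2040, 1936 and 612 on day 4, and 3, 2, 3 and 3 of them were at 0 on day 2 but 0, 1 and 1 on day 4. Control mice held 521 to 1374 CPM of these markers on day 1, 276 to 1559 on day 2 and 888 to 1833 on day 4. Of the 3 sebocyte markers tested, 2 rose, and their part in the lipid genes was not tested.

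Ly6a, the stem cell antigen Sca-1, fell at the second step, from 303, 286, 237 and 635 CPM on day 2 to 61.3, 44.2 and 111 on day 4, after 779, 508 and 693 CPM on day 1, whereas control mice held 135.5 to 156, 59.2 to 307 and 47.4 to 79.0 CPM on the 3 days. The days 2 and 4 did not overlap (log2 -2.30, SE 0.36, edgeR adjusted p = 0.0115). Odc1, the rate-limiting enzyme of polyamine synthesis, was at 159, 247 and 165 CPM on day 1, at 589, 273, 367 and 321 on day 2 and at 116, 91.2 and 133 on day 4. Odc1 fell by 1.78 at the second step (SE 0.26, edgeR adjusted p = 0.00705, at most 0.0487 with any 1 mouse left out). The mitotic gene Ube2c rose by 2.22 (edgeR adjusted p = 0.0283), the 1 call among the 21 cell cycle genes at that step, whose median was -0.21. With sequencing round as a block, 3 genes were called at the second step in basal keratinocytes in place of 122, and with mice of day 2 of the same round alone, 4.

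Vascular endothelial cells could be compared only per library, with 2 libraries on day 1, 2 on day 2 and 1 on day 4. Here 5 genes rose and 4 fell of 10874 from day 1 to day 2, or 0.0828% (0.046% up and 0.0368% down). At the second step 3 genes rose and 0 fell, or 0.0276%. Apln, a gene of sprouting vessels, was among the rises. Without day 1 round 1 or 2, or day 2 round 1 or 2, the first step had 78, 182, 323 and 335 calls and the second 77, 71, 196 and 179, from a spread estimated on fewer libraries.

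Apln, the ligand apelin made by endothelial tip cells, was at 15.1 and 17.3 CPM on day 1, 70.8 and 55.9 on day 2 and 38.1 on day 4. It rose by 1.97 (SE 0.26, edgeR adjusted p = 0.0262) and was the 1 call of 12 angiogenic genes, whose median was 0.54. Col13a1, a transmembrane collagen, had 57.8 and 59.9 CPM, then 279 and 263 CPM, then 210 CPM (log2 2.20, SE 0.21, edgeR adjusted p = 0.0126). Prss23, a secreted serine protease, had 23.1 and 24.6 CPM, then 124 and 206 CPM, then 180 CPM, and rose by 2.77 (SE 0.28, edgeR adjusted p = 0.0126). The libraries of the days were apart in all 3 genes. Mmp14, a membrane-bound matrix protease, rose by 1.55 (edgeR adjusted p = 0.0389), from 41.4 and 46.0 CPM to 136 and 121 CPM. Among 21 cell cycle genes, 0 were called by edgeR at either step, 20 were higher on day 2 with a median of 2.03, and 18 were lower on day 4 with a median of -0.48. Their summed level was 399 and 497 CPM on day 1, 510 and 1099 on day 2 and 568.1 on day 4.

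Gdf15, a stress-induced member of the TGF-beta family, fell and then rose in the vascular cells. It stood at 82.1 and 90.9 CPM on day 1, 10.53 and 16.2 on day 2 and 215 on day 4 (log2 -2.74, SE 0.30, edgeR adjusted p = 0.0136, then log2 4.06, SE 0.31, edgeR adjusted p = 0.00188). Col3a1, a fibroblast collagen, fell by 4.57 at the first step (SE 0.55, edgeR adjusted p = 0.0148), and Mmp3, a stromelysin, and Dcn, the matrix proteoglycan decorin, rose by 4.47 and 3.22 at the second (edgeR adjusted p = 0.0283 for both). These 3 are genes of fibroblasts, and the summed level of 8 fibroblast markers in the vascular cells was 1388 and 296 CPM on day 1, 56.8 and 25 on day 2 and 213 on day 4. All 6 tested markers were lower on day 2 (median -3.92, 1 called) and higher on day 4 (median 1.74, 1 called). The part of fibroblast RNA in these 3 genes was not tested.

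In macrophages and monocytes the fit per library called 0 genes of 11166 from day 1 to day 2 (edgeR, 752 at an unadjusted p under 0.05, against 113 calls by DESeq2) and 1 from day 2 to day 4, or 0.00896%. That gene was H2-M2, a non-classical class I gene, with a mean of 0.324 CPM on day 2 and 61.8 on day 4 (edgeR adjusted p = 0.0230). H2-M2 was also among the leading genes of the dendritic cluster led by Ccl22 and Cd207. The part of dendritic cells or their RNA in the H2-M2 result was not tested. Arg1, the arginase of wound macrophages, was at 5.90 and 4.83 CPM on day 1, 153 and 102 on day 2 and 300.1 on day 4. The days did not overlap, yet the log2 fold change of 4.59 (SE 0.38) did not pass (edgeR adjusted p = 0.111), although it did in 4 of 5 fits that left out 1 library.

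A fit by mouse that kept the unhashed day 1 pool as 1 more sample was added after the data were seen, since only day 1 mouse 3 had 20 macrophages or more. With 2 samples of day 1, 7 of day 2 and 4 of day 4, it called 5 genes up and 43 down of 9401 at the first step, or 0.511% (0.0532% up and 0.457% down). At the second it called 64 up and 37 down, or 1.07% (0.681% up and 0.394% down). With sequencing round as a block this fit called 59 and 28 genes at the 2 steps. Of these, 43 and 24 were called without the block too (edgeR). Guanylate-binding genes, which interferon induces, rose at the first step, and antigen presentation genes and chemokines at the second. The first step had 128 calls without day 1 mouse 3 and 25 without the pool. Without day 4 mouse 2, 3 or 4, or day 2 round 1 mouse 1 or 2, the second had 9, 16, 25, 48 and 36 calls, and without day 2 round 1 mouse 3, day 1 mouse 3 or the pool it had 152, 173 and 171.

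Gbp2, an interferon-induced GTPase, was at 8.46 CPM in day 1 mouse 3 and at 21.0 CPM in the pool. On day 2 it ranged from 68.0 to 350 CPM with a median of 124 CPM, above both samples of day 1, and on day 4 it stood at 79.6, 113, 64.9 and 81.2 CPM. It rose by 3.54 (SE 0.61, edgeR adjusted p = 0.0123). Gbp2 and Gbp3 (log2 2.14, edgeR adjusted p = 0.0256) were the calls among 17 interferon-induced genes, all 17 of which were higher, with a median of 2.35. Gbp7, a gene of the same family outside that list, rose by 1.45 (edgeR adjusted p = 0.0256). Without day 1 mouse 3 or the pool the calls of all 3 were lost (adjusted p up to 0.141, edgeR).

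The complement genes of resident macrophages moved the other way. C1qb was at 271 CPM in day 1 mouse 3 and 1547 CPM in the pool, at 14.5 to 181 CPM on day 2 with a median of 56.0 CPM, and at 154, 402, 644 and 487 on day 4. It fell by 3.69 (SE 0.64, edgeR adjusted p = 0.0123) and then rose by 2.57 (SE 0.57, edgeR adjusted p = 0.0418). Day 4 mouse 1 overlapped with day 2, and without the pool the first call was lost (adjusted p = 0.347, edgeR). Klf2, a transcription factor of quiescent leukocytes, fell by 1.81 (SE 0.25, edgeR adjusted p = 0.00261), from 368 and 632 CPM to 87.6 to 203 CPM, and Cd81, a tetraspanin, by 2.83 (SE 0.42, edgeR adjusted p = 0.0034). Both calls were lost without the pool too (adjusted p = 0.110 and 0.250). The cluster led by C1q genes held 47.8% of the class in that pool, 13.2% in the other library of day 1 and 0.40% to 3.40% on days 2 and 4. Fibroblast markers summed to 1156 CPM in the macrophages of day 1 mouse 3 and 345 CPM in those of the pool, against 32.6 to 159 CPM on day 2, and 5 of the 6 tested fell. Of the basal keratinocyte markers, 3 of the 5 tested fell as well, and they summed to 391 CPM in day 1 mouse 3 and 69.6 to 190.2 CPM on day 2. The part of any of these in the falls was not tested.

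From day 2 to day 4, genes of antigen presentation rose in macrophages. Of 7 MHC class II genes 3 were called, all 7 were higher, and the median was 1.99. In the expanded libraries these 7 genes summed to 6711 and 4966 CPM on day 1, 2040 and 5087 on day 2 and 10180 on day 4. In the macrophages of control mice they summed to 13590 to 25340 CPM on day 2 and 31710 to 35980 on day 4, without overlap. Cd74, the invariant chain, was at 947 to 3311 CPM on day 2 and at 2049, 7565, 14140 and 5455 on day 4 (log2 1.99, SE 0.41, edgeR adjusted p = 0.0337), and H2-Aa at 250 to 1069 CPM and then 727, 2570, 6698 and 2827 CPM (log2 2.28, edgeR adjusted p = 0.0399). In both genes day 4 mouse 1 lay within the range of day 2. Cd74 and H2-Aa were also among the leading genes of the largest dendritic cluster. The part of dendritic cells or their RNA in these rises was not tested. The chemokines Cxcl9, Ccl5 and Cxcl16 rose by 4.76, 4.28 and 2.11 (edgeR adjusted p = 0.0265, 0.0265 and 0.0243). Cxcl16, a ligand for T cells, was at 30.7 to 173 CPM on day 2 and at 345, 335, 509 and 484 on day 4, without overlap. Apoe, the lipid carrier of maturing macrophages, went from 147 to 1141 CPM, with a median of 370.2 CPM, to 2107, 3690, 3087 and 1741 CPM (log2 2.54, SE 0.53, edgeR adjusted p = 0.0355).

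Cd300c2, an activating surface receptor, was the only 1 of the 20 macrophage genes read at the second step that kept its call in each of 13 fits leaving out a sample. It was at 109 to 284 CPM on day 2 and 570.1, 500, 581 and 419 on day 4 (log2 1.58, SE 0.23, edgeR adjusted p = 0.0107, at most 0.0423). Cd74, H2-Aa, Cxcl9, Ccl5, Cxcl16 and Apoe lost theirs in 4 to 9 of 13 fits, among them those without day 4 mouse 2 or mouse 3 (adjusted p up to 0.174, edgeR). S100a8, a calcium-binding protein of monocytes and neutrophils, fell by 2.82 (edgeR adjusted p = 0.0462), from 305 to 2602 CPM on day 2 to 317, 106, 113 and 60.4 on day 4. Neutrophil markers in the macrophages summed to 506 to 3737 CPM on day 2 and 215 to 544 on day 4, 1 of 5 was called down, and their part in the S100a8 result was not tested.

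In dendritic and Langerhans cells the fit per library called 0 genes of 10298 at each step (edgeR, 1396 and 502 at an unadjusted p under 0.05, against 115 and 1 calls by DESeq2). The fit by mouse with the pool, also added after the data were seen, had 3 samples of day 1, 4 of day 2 and 4 of day 4. It called 29 genes up and 43 down of 7435 from day 1 to day 2, or 0.968% (0.39% up and 0.578% down), and 0 from day 2 to day 4 (edgeR, against 40 by DESeq2). With sequencing round as a block this fit called 34 genes at the first step, 28 of which were called without the block too (edgeR). Of the lists read here, 4 of 8 monocyte genes and 3 of 13 interferon-induced genes rose, and 4 of 13 immediate early genes fell. Without day 1 mouse 1, mouse 3 or the pool there were 1, 8 and 27 calls, without day 2 round 1 mouse 2 or round 2 mouse 2 there were 7 and 10, and without day 4 mouse 1 there were 198. The make-up of the class differed between the libraries. The cluster led by Mgl2 and Cd209a, genes of dermal dendritic cells, held 65.8% and 61.7% of it on day 1, 45.2% and 51.8% on day 2 and 56.5% on day 4. The cluster led by Ccl22, Ccr7 and Cd207, genes of migrating dendritic and Langerhans cells, held 33.6% and 38.3%, then 54.1% and 43.5%, then 39.5%. The part of this make-up in the gene steps was not tested.

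Plac8, a gene of monocytes and plasmacytoid dendritic cells, was at 0, 3.07 and 0 CPM in the samples of day 1. On day 2 it stood at 318, 190.2, 106 and 117 CPM and on day 4 at 61.3, 72.9, 35.1 and 44.3 CPM. All mice of day 2 lay above all other samples (edgeR adjusted p = 0.00109, at most 0.0113 with any 1 sample left out). Ly6c2, the Ly6C antigen of monocytes, was at 0, 0 and 0.451 CPM on day 1 and at 22.4, 12.8, 16.6 and 29.0 on day 2 (edgeR adjusted p = 0.0185). Of 8 monocyte genes 4 rose, Plac8, Ly6c2 and Ms4a4c among them, with a median of 0.99. Summed over 9 monocyte genes, the libraries overlapped between the days, at 3457 and 1617 CPM on day 1, 1493 and 1896 on day 2 and 2684 on day 4. The 12 macrophage markers summed in the dendritic class to 3982 and 2038 CPM in the libraries of day 1, 1904 and 2330 CPM on day 2 and 3210 on day 4, and 2 of 12 were called up with a median of 0.08. Of the 4 basal keratinocyte markers tested in the class, 3 fell (median -2.53). The part of monocytes or keratinocyte RNA within this class was not tested.

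Ifitm3, an interferon-induced membrane protein, was at 94.1, 85.9 and 70.8 CPM on day 1, 826, 467, 343 and 1490 on day 2 and 363, 226, 285 and 111 on day 4. It rose by 3.24 (SE 0.51, edgeR adjusted p = 0.0185), without overlap between days 1 and 2. Isg15, a ubiquitin-like interferon product, rose by 2.68 (SE 0.54, edgeR adjusted p = 0.0401), from 27.7, 19.4 and 12.2 CPM to 74.6, 92.8, 163 and 126 CPM. Isg15, Irf7 and Bst2 were the 3 of 13 interferon-induced genes that rose, all 13 were higher, and the median was 2.43. Ccl17, a chemokine by which dendritic cells draw T cells, rose by 3.24 (SE 0.62, edgeR adjusted p = 0.0306), from 30.4, 53.2 and 32.5 CPM to 112, 364, 337 and 689 CPM. Of the 10 migration and activation genes 1 rose, with a median of 0.96. Klf2 fell by 2.97 (SE 0.47, edgeR adjusted p = 0.0185), from 1060, 789 and 729 CPM to 104, 60.3, 200.2 and 69.7 CPM. Fos, Jun, Ier2 and Nr4a1 were the 4 of 13 immediate early genes that fell, with 12 lower and a median of -1.14. Fos went from 3183, 1906 and 2645 CPM to 693, 646, 1010 and 1038 CPM (log2 -1.60, edgeR adjusted p = 0.0475). Apart from Plac8, the 25 dendritic genes read each lost the call in at least 1 of 11 fits leaving out a sample, 24 of them without day 1 mouse 1 (edgeR adjusted p up to 0.156).

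**Figure D3:**
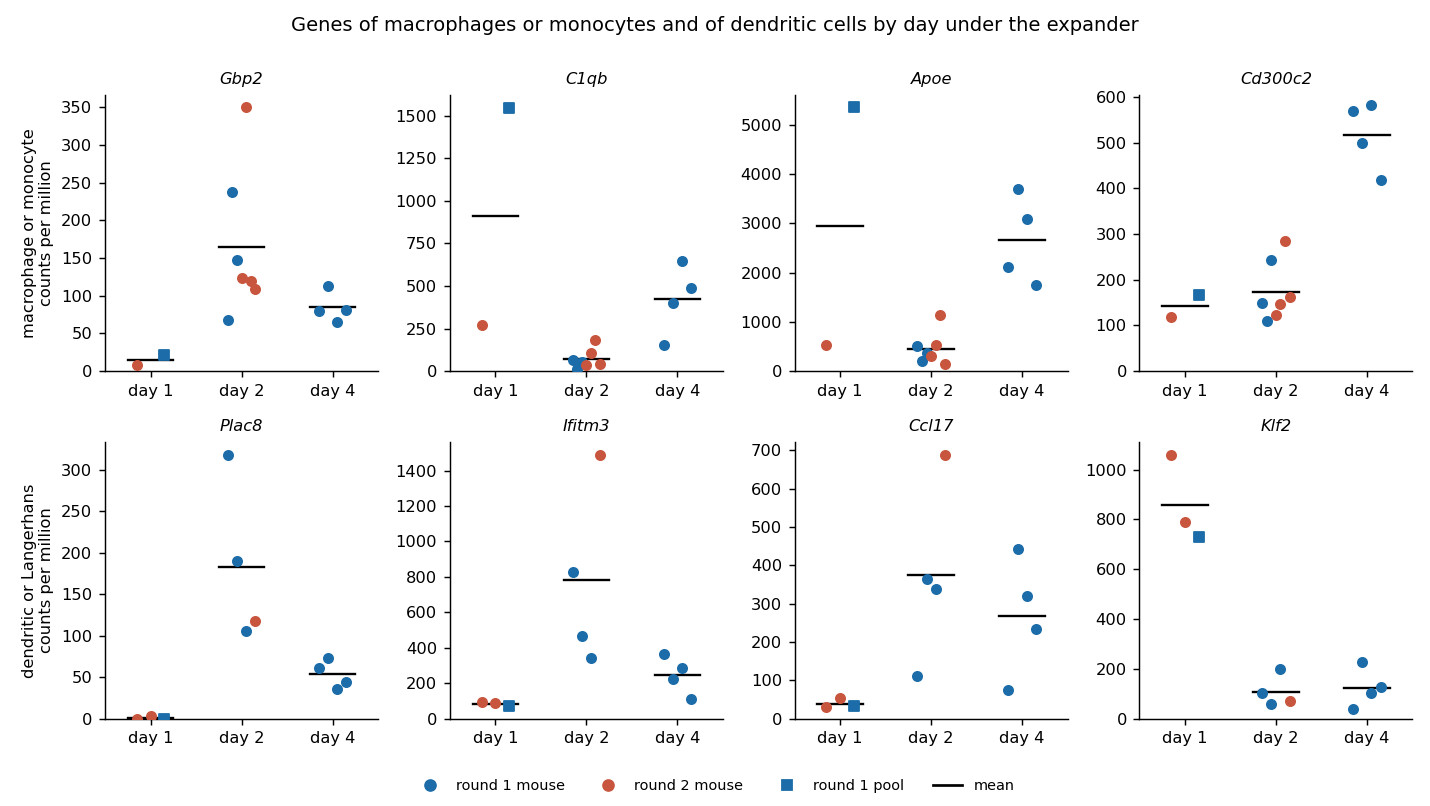
Levels (CPM, linear axis) of 4 genes in macrophages and monocytes and 4 in dendritic and Langerhans cells by day. Circles are mice (blue round 1, red round 2), a square is the unhashed day 1 pool, and bars lie at the mean. Gbp2, Plac8, Ifitm3 and Ccl17 lie higher on day 2 than on day 1, Klf2 lies lower, and Cd300c2 lies above all mice of day 2 on day 4.

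Neutrophils gave few calls. The fit per library called 0 of 5059 genes at each step (edgeR, 292 and 84 at an unadjusted p under 0.05, against 15 by DESeq2 at the first step). By mouse with the pool, 0 of 3270 genes were called at the first step (edgeR, against 63 by DESeq2) and 2 rose at the second, or 0.0612%. Tpi1, a glycolytic enzyme, was at 40.8, 39.2, 40.7, 30.4 and 33.5 CPM on day 2 and at 221, 117 and 92.1 on day 4, with every mouse of day 4 higher (log2 1.96, SE 0.33, edgeR adjusted p = 0.0489). Fam162a, a mitochondrial protein induced in hypoxia, was at 9.04 to 40.5 CPM and then at 242, 117 and 113 CPM (log2 2.45, SE 0.41, edgeR adjusted p = 0.0489). Leaving out 1 sample removed the Fam162a call in all 10 fits and the Tpi1 call in 9 of 10 (adjusted p up to 0.391, edgeR). Tpi1 was the 1 call among 17 glycolytic genes, whose median was 0.39. Without day 1 mouse 3, whose 188 cells were compared with a pool of 20, the first step had 299 calls.

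In lymphocytes 4 genes rose and 19 fell of 6002 from day 1 (3 mice) to day 2 (7 mice), or 0.383% (0.0666% up and 0.317% down). By day 4 (4 mice) another 5 rose and 8 fell, or 0.217% (0.0833% up and 0.133% down). Without day 1 mouse 1, day 2 round 1 mouse 2 or round 2 mouse 2 the first step had 2, 7 and 8 calls, and without day 1 mouse 3 it had 61. Without day 4 mouse 2, 1 or 3, or round 2 mouse 2 or mouse 4 of day 2, the second had 1, 2, 3, 3 and 4. Per library 0 genes were called at either step (edgeR). With sequencing round as a block the second step had 1 call in place of 13, and with day 2 mice of the same round 0 (edgeR). The class mixed several kinds of cell in shares that differed between libraries. A cluster led by Trdc, a gamma delta T cell gene, held 42% and 20.1% of it on day 1, 36.5% and 51.0% on day 2 and 33.2% on day 4. A cluster led by Foxp3, the factor of regulatory T cells, held 3.20% and 12.5%, then 15.6% and 17.8%, then 19.7%. A cluster with Cd8a, Cd8b1 and Trac, genes of cytotoxic T cells, among its leading genes held 5.02% and 29.3%, then 5.73% and 5.77%, then 14.6%, and 56.1% of its cells came from 1 library. The part of these clusters in the gene steps was not tested.

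Tubb5, a tubulin abundant in dividing cells, rose at both steps in lymphocytes. It was at 103, 116 and 133 CPM on day 1, at 182 to 428 CPM with a median of 285 on day 2 and at 649, 727, 557 and 523 on day 4, with no overlap between days. The log2 fold changes were 1.28 (SE 0.23, edgeR adjusted p = 0.0213) and 1.09 (SE 0.19, edgeR adjusted p = 0.0206). Of 19 cell cycle genes 1 rose at the first step, the replication helicase subunit Mcm3 (log2 1.61, edgeR adjusted p = 0.0389), with 17 higher and a median of 1.13. At the second step edgeR called 0 of the 19, with 18 higher and a median of 1.19. Their summed level, over 21 genes, was 501, 556 and 631 CPM on day 1, 427 to 1070 on day 2 and 1468, 1932, 1323 and 1490 on day 4, so that every mouse of day 4 lay above every earlier mouse. In control lymphocytes the same sum was 772 and 474 CPM in the libraries of day 1, 1003 and 1097 on day 2 and 1782 on day 4. With round as a block Tubb5 lost the call at the second step (edgeR adjusted p = 0.0648).

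Apoe fell and then rose in the lymphocytes, and it kept both calls in each of 14 fits leaving out a mouse. It went from 45.8, 82.7 and 68.0 CPM to 5.64 to 14.7 CPM (median 7.49) and then to 35.8, 42.8, 35.4 and 83.1 CPM (log2 -2.82, SE 0.35, edgeR adjusted p = 0.00133, then log2 2.43, SE 0.34, edgeR adjusted p = 0.00529). Apoe is made in quantity by macrophages, in which it also differed between the days, and the summed macrophage markers in the lymphocytes were 65.3 to 422 CPM on day 1, 197 to 456 on day 2 and 200 to 375 on day 4. The part of macrophage RNA was not tested. Egr1, an immediate early factor, fell by 1.60 (edgeR adjusted p = 0.0389) at the first step, the 1 call of 12 such genes, all of which were lower (median -0.73). Gata3, a transcription factor of type 2 lymphocytes, fell by 1.31 (edgeR adjusted p = 0.0449), from 279, 316 and 254 CPM to 42.1 to 232 CPM. Egr1, Gata3 and Mcm3 lost the call in 9 to 12 of 14 fits, among them those without day 1 mouse 1 or mouse 2, and Tubb5 in 3 at the first step and 4 at the second (adjusted p up to 0.235, edgeR).

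The set of 17 interferon-induced genes was read in every class. Its summed level in neutrophils was 425 and 709 CPM in the libraries of day 1, 2409 and 9793 CPM on day 2 and 1515 on day 4. In macrophages and monocytes it was 395 and 374 CPM, then 1368 and 2203 CPM, then 1380 CPM, and in dendritic and Langerhans cells 121 and 157, then 546 and 670, then 574 CPM. In lymphocytes it was 313 and 422 CPM, then 968 and 1100 CPM, then 548 CPM. In these 4 immune classes both libraries of day 2 lay above both of day 1. Fibroblasts had 357 and 612 CPM, then 1113 and 1143 CPM, then 496 CPM, and basal keratinocytes 74.1 and 105, then 168 and 294, then 89.4 CPM. Vascular cells had 1346 and 1236 CPM on day 1 and 1140 and 2308 on day 2, so there the days overlapped. In control skin the sum went from 413 and 471.5 CPM to 479 and 981 and then 1187 CPM in macrophages, and from 525 and 621 CPM to 570 and 1117 and then 1183 CPM in fibroblasts. Control libraries of day 4 thus lay above those of day 1 in both classes.

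The mice of day 2 differed widely in this set. Neutrophils of the 5 mice with enough cells ranged from 1552 to 14220 CPM, the highest being round 2 mouse 2. Macrophages were at 728 and 771 CPM in mice 1 and 2 of round 1 and at 3069 CPM in mouse 3 of the same round. Fibroblasts stood at 499, 1239 and 1221 CPM on day 1, at 577, 766, 2380, 1194 and 2041 on day 2 and at 263, 328, 1119 and 763 on day 4, so the days overlapped by mouse. By the edgeR test no gene of the set was called at the first step in fibroblasts (0 of 15, median 0.97), basal keratinocytes (0 of 6, median 2.61) or lymphocytes (0 of 9, median 0.75), and none in neutrophils per library (0 of 14, median 3.74). At the second step the medians were -1.57, -2.43, -0.94 and -1.52 in the same 4 classes, again with 0 called.

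**Figure D4:**
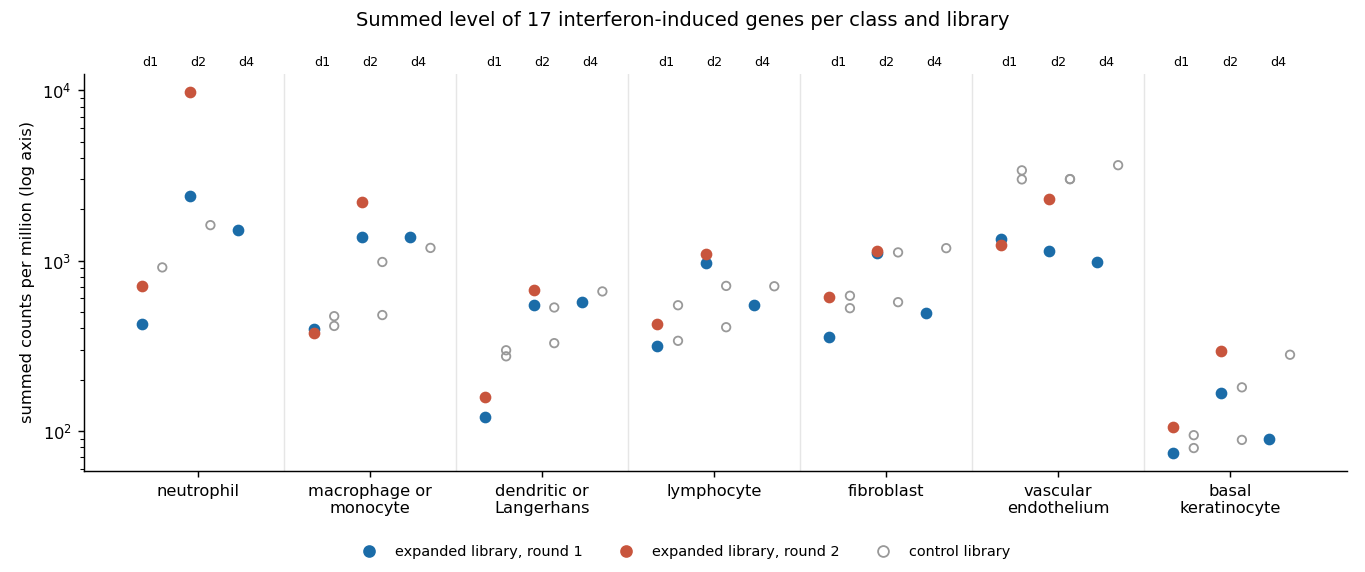
Summed level of 17 interferon-induced genes (CPM, log axis) in 7 cell classes by day, with 1 filled point per expanded library and 1 open grey point per control library. In neutrophils, macrophages, dendritic cells, lymphocytes, fibroblasts and basal keratinocytes both expanded libraries of day 2 lie above both of day 1.

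A few genes with short transcripts fell at the second step in several classes at once. Rpl35, a protein of the large ribosomal subunit, was at 924, 808, 708, 1357 and 1140 CPM in the fibroblasts of day 2 and at 364, 303, 303 and 288 CPM on day 4 (log2 -1.65, SE 0.18, edgeR adjusted p = 0.00153). In basal keratinocytes Rpl35 had 1460, 2011, 1694 and 1840 CPM and then 617, 582 and 567 CPM (log2 -1.57, SE 0.13, edgeR adjusted p = 7.86e-05), and in lymphocytes it fell by 1.43 (SE 0.20, edgeR adjusted p = 0.00529). Days 2 and 4 were apart in all 3 classes. Rps29, of the small subunit, fell by 1.33, 1.31 and 1.23 in the same classes (edgeR adjusted p = 0.00451, 0.00012 and 0.00626). In lymphocytes neither passed with sequencing round as a block (edgeR adjusted p = 0.0603 for Rpl35 and 0.0648 for Rps29). Most ribosomal protein genes were not called, yet they were called down more often than genes at large. Of 78 tested in fibroblasts 13 fell with a median of -0.22, against 44 falls among all 8037 genes. Of 77 in basal keratinocytes and in lymphocytes 11 and 5 fell, with medians of 0.11 and 0.08. Over all genes 59 of 7984 and 8 of 6002 fell in those classes.

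Day 4 is 1 library in each arm, and Rpl35, Rps29, Rpl38, Rps28, Rpl41 and Atp5k were also lower in the day 4 library of control skin. The ratio of day 4 to the mean of day 2 for Rpl35 was -1.65 in expanded and -0.85 in control fibroblasts on the log2 scale, and -1.55 and -0.74 in basal keratinocytes. Over these 6 genes the ratios were -0.48 to -1.66 in the expanded classes other than neutrophils, -0.46 to -0.91 in the control classes shown, and -0.07 to -0.79 in expanded neutrophils. Gm10260 and Gm10076, gene models named only by number, stood nearer 0 in control fibroblasts. Their ratios were -1.18 and -1.19 in expanded and 0.18 and -0.19 in control fibroblasts. Across the control classes Gm10260 was at 0.18 to 0.42 and Gm10076 at -0.37 to 0.07. Fibroblast genes called down at the second step had a median transcript length of 688 bases, against 1310 over all genes tested, and those of basal keratinocytes 662 against 1240. Day and library cannot be told apart here, and the part of the library was not tested.

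**Figure D5:**
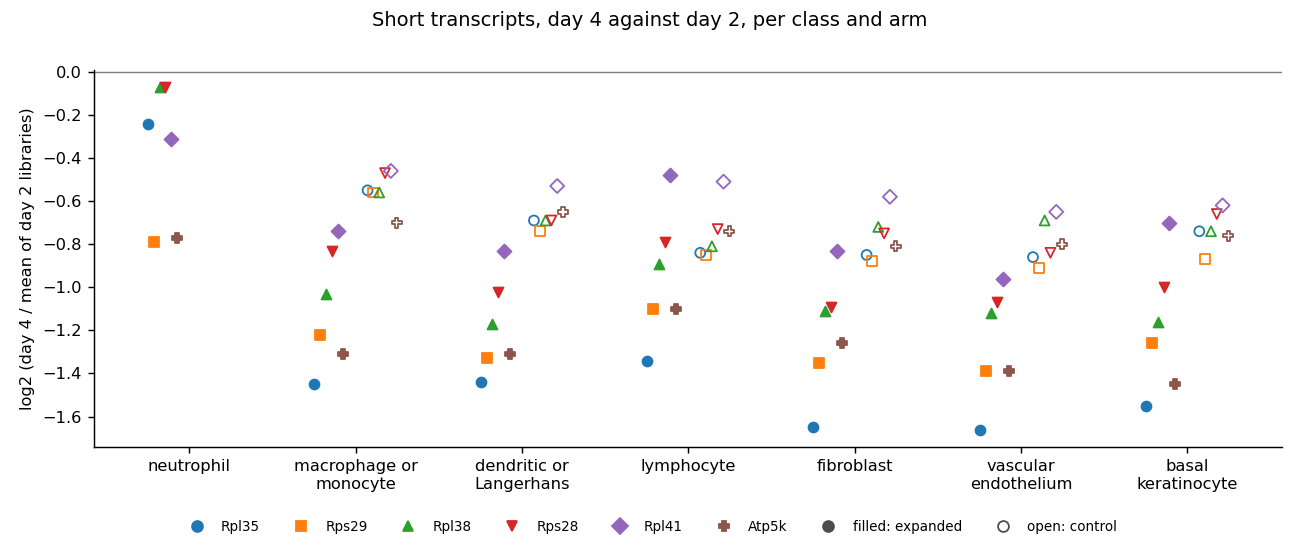
Log2 ratio of the day 4 library to the mean of the day 2 libraries (y axis) for Rpl35, Rps29, Rpl38, Rps28, Rpl41 and Atp5k in each cell class (x axis), with filled points for expanded and open points for control skin. All ratios lie below 0, and in fibroblasts Rpl35 is at -1.65 in expanded and -0.85 in control skin.

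The steps were also set against those of control skin where enough control mice had the class. From day 1 to day 2 the difference between the arms' steps was called for 0 of 9763 genes in fibroblasts (edgeR, 663 at an unadjusted p under 0.05), for 7 of 7658 in basal keratinocytes, or 0.0914%, and for 0 of 6690 in lymphocytes (edgeR, 267 at an unadjusted p under 0.05). From day 2 to day 4 it was called for 1, 8 and 0 genes, or 0.0102%, 0.104% and 0% (270 at an unadjusted p under 0.05 in lymphocytes). Slc27a3 in basal keratinocytes had a step from day 1 to day 2 that was lower by 1.96 on the log2 scale under the expander than in control mice (edgeR adjusted p = 0.0201). The falls of Rpl35, Rps29 and Rpl38 from day 2 to day 4 in basal keratinocytes were larger under the expander (log2 differences between the steps of -1.15, -0.83 and -0.84, edgeR adjusted p = 0.00871, 0.0359 and 0.0412). The first step of Rps29 there was higher under the expander by 0.75 (edgeR adjusted p = 0.0413). The second steps of Gm10260 and Gm10076 in basal keratinocytes were lower under the expander by 1.14 and 1.16, and that of Gm10260 in fibroblasts by 1.4 (edgeR adjusted p = 0.0359, 0.0360 and 0.0024). For the other fibroblast, basal keratinocyte and lymphocyte genes named above the difference between the arms did not pass the test, and in the other 4 classes it was not tested.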

How the data were processed

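Single-cell 3′ mRNA was measured in 5 libraries of expanded skin and 5 of control skin. The deposited matrices hold UMI counts per gene and barcode, which the authors made with Cell Ranger 6.1.2 on mm10, per the submitters' processing notes, without normalization. The hashing antibody counts lie in the same matrices. Classes, gene lists and the comparison were chosen with earlier results of these data known.

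A barcode was kept as a cell with 200 genes and 500 UMIs or more and a mitochondrial share of 10% or less. Doublets were called per library with Scrublet at an expected rate of 0.008 per 1000 cells and removed. Clusters came from scanpy 1.11.5 (2000 variable genes, 30 components, 15 neighbours, leiden resolution 1). Naming a cluster took at least 3 markers of a class and a score, the share of that class's markers found, of at least 0.35. The score had to lead the next class by 0.1, or more of the class's markers had to be among the 10 leading genes. Clusters with over 75% of cells from 1 library stayed unnamed. The fibroblast cluster led by Coch, Fmod and Crabp1 scored 0.375, against 0.286 for mural cells. It held 42.4%, 46.2% and 47.2% of expanded fibroblasts on days 1, 2 and 4. Mice were assigned with HTODemux in Seurat 5.3.0 (quantile 0.99). Up to 0.4126% of the barcodes of a library also occurred in another, and these were kept.

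Counts of a class were summed per mouse with at least 20 cells where each day had 3 such mice (fibroblasts, basal keratinocytes, lymphocytes), and otherwise per library. They were tested with edgeR 4.0.16 (quasi-likelihood, TMM, low-count filter, adjusted p under 0.05), on expanded samples alone. Shares were tested over mice by exact permutation. Tested on simulated data, log2 changes of 2 were recovered for 90% of genes in fibroblasts, 84% in basal keratinocytes, 80% in lymphocytes, 68% in vascular cells, 56% in dendritic cells, 41% in macrophages and 8% in neutrophils. For log2 changes of 1 the shares were 29%, 38%, 31%, 22%, 3%, 4% and 0% in the same order. Named genes had an adjusted p under 0.05, no overlap between the days, at least 50 CPM on the higher day and at least 10% of the level of the highest class, and the 8 largest changes per direction were taken, with list members added. Cxcl1 and other list members, and Gbp7, may overlap between days. Alternatives were DESeq2 1.42.0, limma 3.58.1 with voom, no filter, thinning to 2000 UMIs, the other unit, rounds as a block, day 2 mice of 1 round, and each sample left out. Values of some genes are not reported here.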

Additional observations from a re-analysis of the deposited data

Results flagged for a closer look

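Among 290 groups of 4 to 10 samples, 21 held a highest or lowest value far from the rest by Dixon's test, which chance gives in about 1 group in 20. In fibroblasts these were Slpi on day 2 (1458 CPM in round 2 mouse 1, the others 12.9 to 244 CPM), Hspa1a on day 2 (197 CPM in round 2 mouse 4) and Mknk2 on day 4 (56.8 CPM in mouse 4). In basal keratinocytes they were Fgfr2 (43.0 CPM in round 2 mouse 1) and Ly6a (635 CPM in round 2 mouse 4), both on day 2.

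In macrophages of day 2, round 2 mouse 3 stood above the others in C1qa (274 CPM), C1qc (190.6 CPM) and Apoe (1141 CPM), round 2 mouse 2 in Cxcl9 (24.0 CPM) and round 1 mouse 2 in Ccl5 (16.5 CPM). Round 2 mouse 4, with 29 cells, stood apart in Cd83 (68.9 CPM, the lowest) and Ahsa1 (78.3 CPM). On day 4 mouse 1 was apart in Tmsb10 (1093 CPM).

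In dendritic cells of day 2, round 2 mouse 2 was highest in Ifi27l2a (842 CPM) and Ms4a4c (339.6 CPM), and round 1 mouse 3 stood apart in Midn (83.9 CPM). On day 4 mouse 4 was lowest in Jun (293 CPM). In lymphocytes, Pa2g4 was lowest in round 2 mouse 4 of day 2 (59.9 CPM), and day 4 mouse 4 was apart in Pa2g4 (79.5 CPM, lowest), Mcm3 (31.8 CPM, lowest) and Apoe (83.1 CPM, highest).

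The step under the expander differed from the step in control mice for 16 gene steps by edgeR's interaction term. In fibroblasts from day 2 to day 4 this was Gm10260, at a log2 difference of -1.40 (adjusted p = 0.0024). In basal keratinocytes from day 1 to day 2 these were Slc27a3 at -1.96, Cdcp1 at 1.77, a transmembrane protein of epithelial cells, Rps29 at 0.75, Gm42418 at 1.43, AY036118 at 1.22, Rps6ka3 at 2.05 and mt-Nd3 at 1.80 (adjusted p = 0.012 to 0.0413). Gm42418 and AY036118 overlap ribosomal RNA genes. From day 2 to day 4 they were Rpl35 at -1.15, Tpm3 at -1.24, Mt2 at -1.31, Rpl38 at -0.84, Rps29 at -0.83, Gm10260 at -1.14, Gm10076 at -1.16 and Gm42418 at -1.29 (adjusted p = 0.00871 to 0.0412). Gm10260 and Gm10076 resemble ribosomal protein genes, and reads shared with them could not be told apart here.

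Cdcp1 was at a mean of 63.4 CPM on day 1 and 99.1 CPM on day 2 in expanded basal cells and at 232 and 110 CPM in control basal cells. Slc27a3 was at means of 107 and 39.5 CPM in expanded cells and 19.6 and 30.1 CPM in control cells.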

How the results depend on the processing

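Counts of genes called depended on the samples and on the test more than directions did. Over 178 named gene steps, 1238 of 2000 fits that left out a sample and 739 of 1057 other alternatives kept the call, and 30 and 63 gene steps kept it throughout. By library, Fcgbp and Thbs2 in basal keratinocytes turned to log2 0.36 and 0.13 from day 1 to day 2. The cause was not tested.

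Of the shares, the difference from day 1 to day 2 over all assigned cells was 25.5 points for macrophages and -16.1 for lymphocytes (adjusted p = 0.208), and with round 2 mice of day 2 alone 27.4 and -29.6 (exact permutation test, adjusted p = 0.143 and 0.190). Mast cells per library differed by -5.71 points. At resolution 2 the mural class differed by 5.09 from day 1 to day 2, and basal keratinocytes and vascular cells by 4.203 and 9.74 from day 2 to day 4. Over all cells, dermal papilla and mural cells differed by 4.11 and 1.01 at the first step, and vascular and mural cells by 4.93 and -0.207 at the second. Leaving out 1 mouse gave 29.5 to 38.8 and -11.3 to -3.48 points for macrophages at the 2 steps, -42.0 to -30.5 and -0.224 to 10.45 for lymphocytes, 11.3 to 16.4 and -4.66 to 3.07 for neutrophils, -11.5 to -1.01 and 0.535 to 5.19 for dendritic cells, and -3.16 to -1.57 and -0.634 to 0.330 for mast cells.

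Numbers of genes called follow as first step, then second step. DESeq2 called 138 at the second step in fibroblasts, 195 and 209 in basal keratinocytes, 35 and 13 in vascular cells, 113 and 10 in macrophages, 15 at the first in neutrophils, 115 and 1 in dendritic cells and 85 and 44 in lymphocytes. With the pool added it called 143 and 254 in macrophages, 63 and 29 in neutrophils and 231 and 40 in dendritic cells. Without the filter on low counts edgeR called 198 at the second step in fibroblasts, 449 and 548 in basal keratinocytes, 288 and 114 in vascular cells, 366 and 105 in macrophages, 94 and 2 in neutrophils, 632 and 162 in dendritic cells and 198 and 85 in lymphocytes, and with the pool added 185 and 193, 154 and 34, and 523 and 271 in the 3 myeloid classes.

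Thinned to 2000 UMIs per cell, 104 and 16 were called in fibroblasts, 3 and 18 in basal keratinocytes, 35 and 11 in vascular cells, 2 and 0 in macrophages, 97 at the first in dendritic cells and 1 and 3 in lymphocytes. With the library as unit, 3 and 6, 25 and 0, and 0 and 0 were called in fibroblasts, basal keratinocytes and lymphocytes, and with the mouse as unit 27 and 2 in dendritic cells. With mice and the day 1 pool, 48 and 101 were called in macrophages, 2 at the second in neutrophils and 72 at the first in dendritic cells. Limma voom called 661 and 213, 425 and 609, and 103 and 92 in fibroblasts, basal keratinocytes and lymphocytes. With day 2 mice of the same round, 134 and 39 were called in fibroblasts, 4 at the second in basal keratinocytes and 4 and 0 in lymphocytes. With the spread taken over both arms, 1 was called at the second step in vascular cells, 3 and 0 in macrophages and 25 at the first in dendritic cells.

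The labels call these sequencing rounds and do not say what else libraries of a round shared. The difference between rounds on day 1 correlated with that on day 2 at -0.24 to -0.01 across the classes. With 1 pair of libraries per day, this cannot decide whether libraries of the same round number share an effect. With round as a replicate block, 186 and 42 were called in fibroblasts, 83 and 3 in basal keratinocytes, 153 and 41 in vascular cells, 0 and 0 in macrophages, 55 and 0 in neutrophils, 96 and 2 in dendritic cells and 20 and 1 in lymphocytes. By mouse with the pool, the block gave 59 and 28 calls in macrophages, 40 and 0 in neutrophils and 34 and 1 in dendritic cells. Crossed numbers, per library, gave 67 first-step calls in macrophages and 159 in dendritic cells. The difference between arms had 1 call at the first step in fibroblasts and 11 and 8 in basal keratinocytes under the block. Without the filter that difference had 4 and 3 calls in fibroblasts, 271 and 121 in basal keratinocytes and 40 and 21 in lymphocytes, and per library 0 at the second step in fibroblasts and 1 and 0 in basal keratinocytes.

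Leaving out 1 sample gave 41 to 381 and 18 to 94 calls in fibroblasts, 11 to 84 and 17 to 160 in basal keratinocytes, 9 to 335 and 71 to 196 in vascular cells, 0 to 172 and 2 to 17 in macrophages, 0 to 417 and 0 to 0 in neutrophils, 0 to 392 and 0 to 19 in dendritic cells and 2 to 61 and 1 to 17 in lymphocytes. With the pool it gave 25 to 128 and 9 to 173 in macrophages, 0 to 299 and 0 to 2 in neutrophils and 1 to 198 and 0 to 2 in dendritic cells. The difference between arms ranged from 0 to 3 and 1 to 2 in fibroblasts, 0 to 50 and 0 to 9 in basal keratinocytes and 0 to 3 and 0 to 1 in lymphocytes. Fits by mouse were not run for vascular cells, macrophages and neutrophils, which had too few mice with 20 cells on day 1. Simulated log2 changes of 2 were recovered least in neutrophils, at 8%, where depth and the number of libraries cannot be told apart.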
